A study of Mus musculus with 6 samples.

Results

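The genes described here are the lymphocyte antigen 6 (Ly6) surface protein genes Ly6d, Ly6e, Ly6a, Ly6k, Ly6h, Ly6i, Ly6g6c and Ly6g6d, as expressed in thymocytes with and without Hdac3. They were chosen by family name together with earlier results of the same comparison, in which Ly6d stood out, so their differences between genotypes are given as a description and not as tests. Of the 8 genes, 7 had a probe set paired with them alone, among 19938 genes measured in that way, and each of the 7 had 1 probe set. Ly6a was not analysed here.

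The tested cells were double-positive (DP) thymocytes, which bear CD4 and CD8 together, of Hdac3 knockout (KO) mice, and the comparison cells were DP thymocytes of wild-type (WT) mice. Both genotypes were on the C57BL/6 strain, were 3 weeks old and received no treatment. Each had 3 arrays, described as biological replicates, made from RNA pooled from 2 mice per genotype. The labels name the KO strain after Lck, a kinase gene of T cells, and Hdac3, and do not say which part of Hdac3 was deleted. Values are log2 probe set signals, and they rank arrays for 1 gene but do not rank different genes, whose probes differ.

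Ly6 proteins are small and carry a compact domain held by disulfide bonds, known as the three-finger or LU domain. Most are tethered to the outer membrane by a glycosylphosphatidylinositol (GPI) lipid. In mice many of their genes sit in 1 cluster, and a smaller group lies in the class III region of the major histocompatibility complex. Several were first found as antibody markers of lymphocytes and thymocytes. HDAC3 is a histone deacetylase that works within corepressor complexes built on NCoR or SMRT.

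The labels were checked first. Hdac3 had log2 values of 8.28, 8.32 and 8.32 on the KO arrays, against 9.40, 9.42 and 9.44 on the WT arrays. All 9 measured DP thymocyte markers were brighter than at least 84.6% of the tested probe sets. Of these 9 markers 0 passed between genotypes (limma, adjusted p under 0.05), where 5.79% of all probe sets did. The nearest were Cd24a at -0.54 (limma adjusted p = 0.064), the heat-stable antigen, and Arpp21 at -0.16 (limma adjusted p = 0.36). Cd24a lay lower on every KO array (8.58, 8.20 and 8.29) than on any WT array (9.03, 9.06 and 8.59), and it passed under 6 of 15 alternatives, with limma adjusted p from 0.021 to 0.28. Interquartile ranges of signal were 3.06 to 3.25 on the KO arrays and 3.29 to 3.49 on the WT arrays, so bright probe sets tended down and dim ones up in KO. KO array 2 stood apart in neutrophil markers: their mean log2 level over 12 genes was 5.96 there and 4.48 and 4.50 on the other KO arrays, against 4.31 to 4.46 on the WT arrays.

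Ly6d encodes the antigen ThB, a GPI-anchored protein of cortical thymocytes and of B cells, and it also marks lymphoid progenitors set on the B lineage. Its log2 values (probe set 10429520) were 8.12, 6.17 and 7.91 on KO arrays 1 to 3, against 10.12, 9.43 and 9.71 on WT arrays 1 to 3. Every KO array lay below every WT array, and KO array 2 was by far the lowest. The means were 7.40 ± 1.07 in KO and 9.75 ± 0.35 in WT (SD, n = 3 each). The log2 difference was -2.35 (limma SE 0.43, 95% interval -3.31 to -1.40), which leaves 19.6% of the WT level in KO (95% interval 10.1% to 38.0%). That SE and interval draw on the spread of all probe sets as well as that of Ly6d. In the fit with an intensity trend and robust prior the SE was 0.63. As this contrast chose Ly6d, the interval is a description. Among all 23410 tested probe sets the Ly6d difference was the fall of rank 2. The median difference of probe sets of similar brightness was -0.13, in the 1 of 10 signal bins that holds Ly6d.

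The KO arrays disagreed about how far Ly6d was lowered. Relative to the WT mean, KO array 1 lay at -1.63, KO array 3 at -1.84 and KO array 2 at -3.58 on the log2 scale. Without KO array 2 the difference was -1.74 (SE 0.19), or 30.0% of the WT level. That array is also the one with raised neutrophil markers. The part of other cell types in its low value was not tested, and the -1.74 is the difference measured without that array. In RNA of many cells, fewer cells that express Ly6d and less Ly6d RNA per cell cannot be told apart.

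Ly6e encodes thymic shared antigen 1, also called SCA-2, a GPI-anchored protein of immature thymocytes whose gene is induced by interferon. It had log2 values of 11.70, 11.65 and 11.52 on the KO arrays, against 11.82, 11.90 and 11.78 on the WT arrays. The ranges did not overlap, but the gap between them was narrow. The means were 11.62 ± 0.09 in KO and 11.83 ± 0.06 in WT (SD, n = 3 each), a difference of -0.21 (SE 0.09). The KO signal was thus 86.3% of WT.

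**Figure D1:**
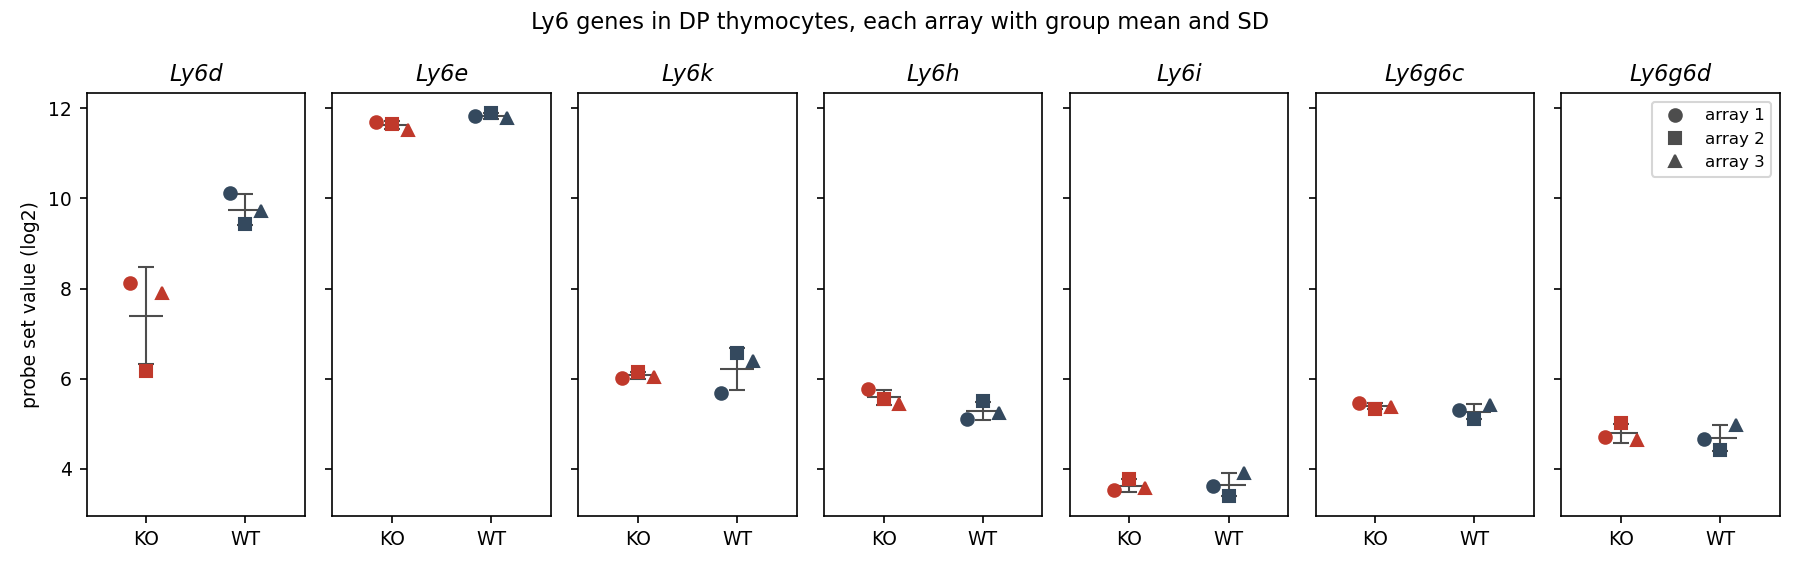
Log2 probe set values of the 7 measured Ly6 genes on each array, with KO left of WT in every panel. Circles, squares and triangles are arrays 1, 2 and 3 of a genotype, and the bars are the group mean and SD (n = 3). KO values of Ly6d and Ly6e lie below all their WT values, and the KO arrays of Ly6d range from 6.17 to 8.12.

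The other members of the chromosome 15 cluster showed no such gap. Ly6k encodes a surface protein known from testis and sperm. It had 6.02, 6.16 and 6.04 on the KO arrays, against 5.68, 6.56 and 6.39 on the WT arrays. The KO arrays sat inside the spread of the WT arrays. Its difference was -0.14 (SE 0.19). It turned to 0.04 when WT array 2 was left out and to -0.40 (SE 0.11) when WT array 1 was left out, and passed in neither fit.

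Ly6h encodes a protein of the nervous system that acts on nicotinic acetylcholine receptors. Its values were 5.76, 5.55 and 5.44 on the KO arrays, against 5.10, 5.51 and 5.24 on the WT arrays. Most KO arrays were above the WT arrays, but KO array 3 fell below WT array 2. The difference was 0.30 (SE 0.13, 95% interval 0.01 to 0.59), while the median of its signal bin was 0.16, and after quantile normalization it was 0.19.

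Ly6i is a close relative of Ly6a and Ly6c that is known from myeloid cells. It had 3.53, 3.78 and 3.56 on the KO arrays, against 3.63, 3.39 and 3.92 on the WT arrays. The groups overlapped fully, with a difference of -0.02 (SE 0.14). Its probe set was dim, brighter than 11.9% of the tested probe sets, the RefSeq interval of Ly6i overlaps that of the noncoding gene Gm28068, and no detection call was used here to tell such a signal from background.

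The chromosome 17 members also showed no gap between genotypes. Ly6g6c, of the class III region, had 5.46, 5.33 and 5.38 on the KO arrays, against 5.31, 5.09 and 5.41 on the WT arrays (difference 0.12, SE 0.11). Ly6g6d, its neighbour, had 4.71, 5.02 and 4.63 on the KO arrays, against 4.65, 4.42 and 4.98 on the WT arrays (difference 0.10, SE 0.15). Both overlapped between genotypes. After quantile normalization the differences were 0.0054 for Ly6g6c and -0.01 for Ly6g6d. In the RefSeq gene table of mouse assembly GRCm38.p6 the interval of Ly6g6d overlaps those of Ly6g6e and Ly6g6f, so its signal may not belong to it alone.

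Among the 7 measured members, 1 (Ly6d) had an adjusted p under 0.05 in the fit across all probe sets, where 5.79% of all probe sets did. Ly6d did not pass when WT array 1 was left out, nor in the fit with a robust prior and intensity trend. The KO and WT ranges did not overlap for 2 of the 7, Ly6d and Ly6e, and for 30.0% of all probe sets. Since the same contrast chose the genes, nothing is read from these counts. The median difference of the 7 was -0.02, as against 0.02 over all tested probe sets, with 3 positive and 4 negative differences.

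**Figure D2:**
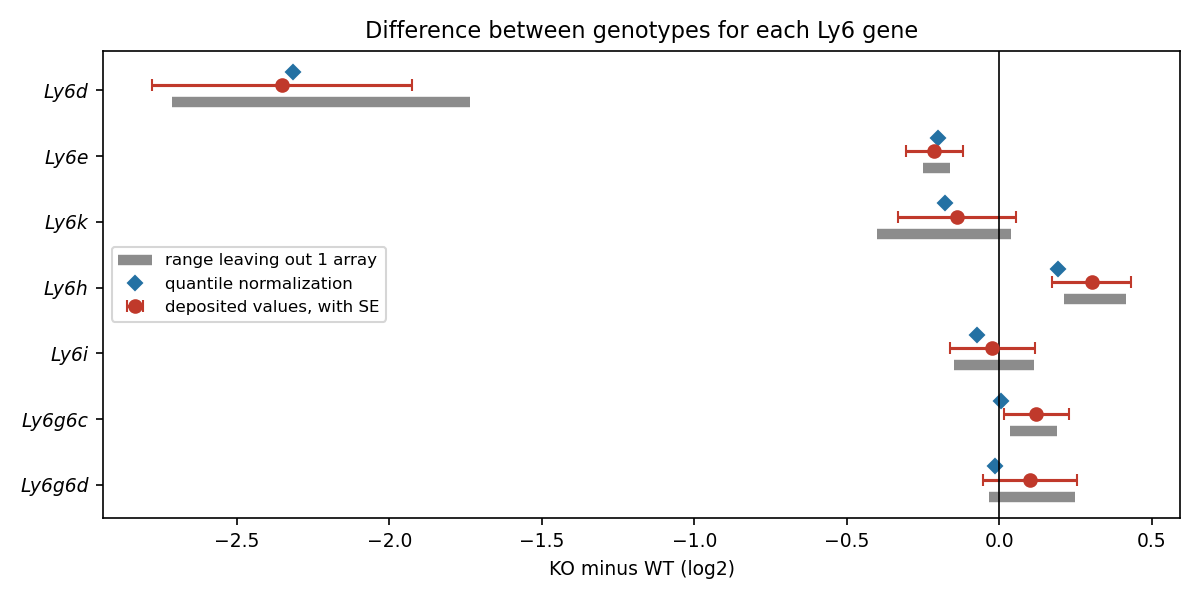
Differences between genotypes (KO minus WT, log2) of the 7 measured Ly6 genes. Red points are the deposited values with their SE, blue diamonds the values after quantile normalization, and grey bars the range over the 6 fits that leave out 1 array. The bar of Ly6d runs from -2.71 to -1.74, while those of Ly6k, Ly6i and Ly6g6d cross 0.

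Genes near the members were compared next. By the same RefSeq annotation, 103 further genes lie within 200 kb of a member, and 60 of them were measured. Of these, 3 rose, 3 fell and 54 did not pass (limma, adjusted p under 0.05), which is 10% against 5.79% of all probe sets. Around the chromosome 15 members 1 rose and 2 fell of 26, and around the chromosome 17 members 2 rose and 1 fell of 34.

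Both chromosome 15 genes that fell lie on the same side of Ly6d. Lynx1, the next measured gene to Ly6d, encodes a Ly6-type protein that modulates nicotinic acetylcholine receptors in the nervous system. It had 5.15, 4.71 and 5.38 on the KO arrays, against 5.97, 5.74 and 5.93 on the WT arrays. Every KO array was below every WT array, and KO array 2 was again the lowest. The difference was -0.79 (SE 0.16, limma adjusted p = 0.022). It did not pass when WT array 1 or WT array 2 was left out, with limma adjusted p up to 0.086 over 14 alternatives and differences from -0.95 to -0.61.

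Them6, a gene of a thioesterase-like protein outside the Ly6 family, had 8.12, 7.87 and 8.12 on the KO arrays, against 8.89, 8.80 and 8.95 on the WT arrays. The groups were clearly apart, and KO array 2 was the lowest here too. The difference was -0.84 (SE 0.10, limma adjusted p = 0.0028), and it passed under all 15 alternatives, with differences from -0.95 to -0.66. Slurp1, Lypd2 and Slurp2, Ly6-type genes between Them6 and Lynx1, had differences of 0.06, 0.18 and 0.09 and did not pass. On the other side of Ly6d, Ly6g6g had a difference of 0.26 (SE 0.14, limma adjusted p = 0.27). No fall was thus measured for Slurp1, Lypd2, Slurp2 and Ly6g6g. Their probe sets were brighter than 41.1% (Ly6g6g) to 54.8% (Slurp1) of the tested probe sets, a range that also holds Lynx1. No detection call was used, so a gene at background, which could not show a fall, cannot be told from an unchanged one. Whether the fall was shared by all genes around Ly6d was not tested.

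Further along the same cluster Cyp11b1, the steroid 11-beta-hydroxylase gene of the adrenal cortex, rose by 0.36 (SE 0.09, limma adjusted p = 0.048) at a dim signal. That call was kept under 1 of 14 alternatives. Ly6g, the neutrophil antigen recognised by Gr-1 antibodies, was looked at after its values were seen. It had 3.78, 4.61 and 3.88 on the KO arrays, against 3.70, 3.79 and 3.68 on the WT arrays, and did not pass (limma adjusted p = 0.26). Its single high array was KO array 2, where S100a8 was at 7.12 and S100a9 at 7.58 while neither exceeded 5.02 on any other array.

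**Figure D3:**
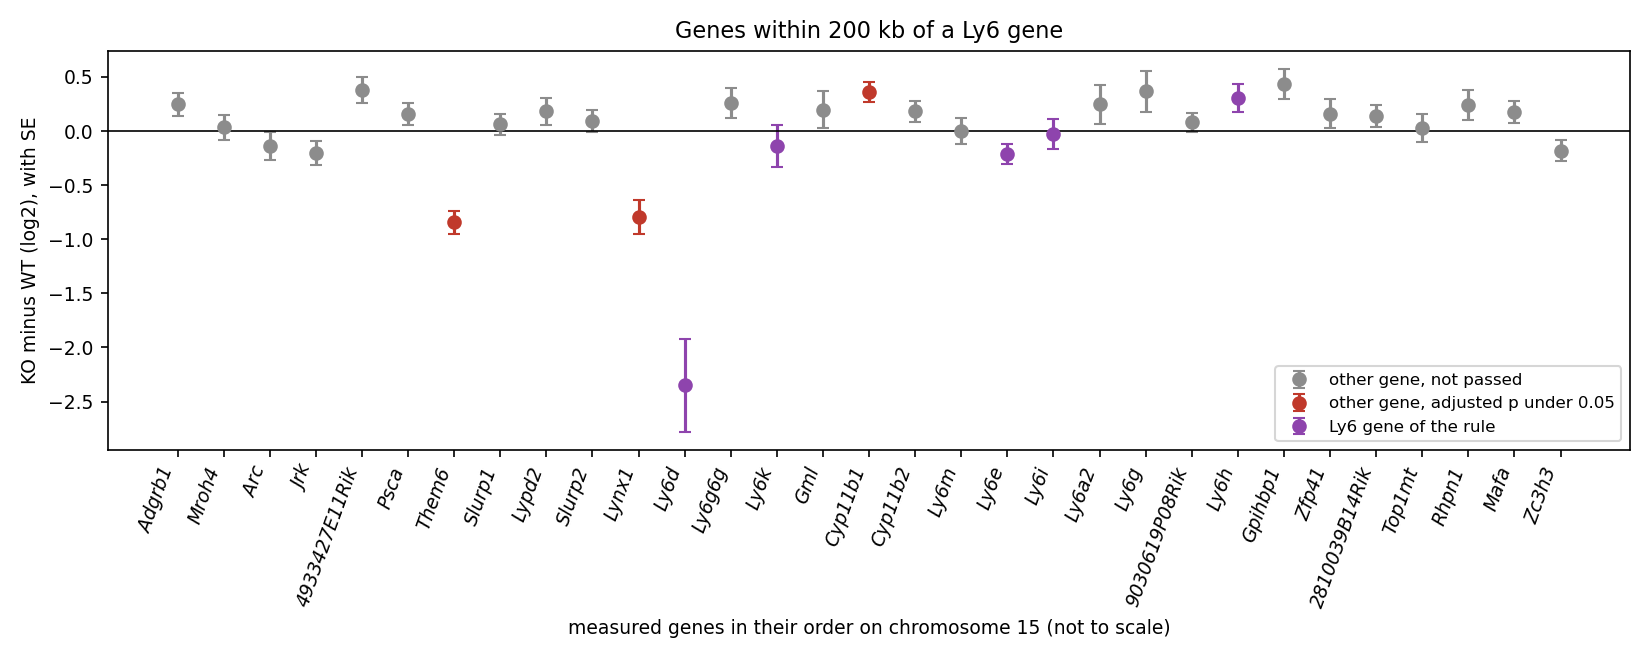
Differences between genotypes (KO minus WT, log2, with SE) of the measured genes within 200 kb of a Ly6 gene, in their order on chromosome 15. Purple points are the Ly6 genes described here, red points other genes with an adjusted p under 0.05 and grey points other genes that did not pass. Ly6d lies lowest at -2.35, with Lynx1 beside it at -0.79 and Them6 at -0.84, and most others lie near or above 0.

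Near the chromosome 17 members the gene of the cytokine TNF moved most. Tnf had 7.13, 7.35 and 7.15 on the KO arrays, against 5.86, 5.97 and 6.23 on the WT arrays. The groups were far apart compared with their spread. It rose by 1.19 (SE 0.12, limma adjusted p = 0.0011). Lta, the related cytokine gene of lymphotoxin alpha beside it, rose by 0.54 (SE 0.11, limma adjusted p = 0.026). Ddah2, of the enzyme family that breaks down methylated arginines, fell by 0.36 (SE 0.09, limma adjusted p = 0.044). Lta and Ddah2 each kept their call in few fits without 1 array, 2 of 6 and 1 of 6, with limma adjusted p up to 0.17 and 0.13 over all alternatives.

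Other genes of the Ly6 and urokinase receptor family were mostly dim, with 7 of 32 above the median signal. Of 36 listed, 32 were measured, 1 rose, 1 fell and 30 did not pass (limma, adjusted p under 0.05), which is 6.25% called against 5.79% of all probe sets. The one that fell was Lynx1. The one that rose was Cd59a, which encodes a GPI-anchored inhibitor of the complement attack complex. It had 3.58, 3.87 and 4.21 on the KO arrays, against 3.07, 3.38 and 3.25 on the WT arrays. Its probe set was dim, brighter than 10.8% of the tested probe sets, and no detection call was used to tell its signal from background. The groups did not overlap, and the difference was 0.65 (SE 0.16, limma adjusted p = 0.044). That call was kept in 1 of 6 fits without 1 array and lost after quantile normalization, with limma adjusted p up to 0.15. Differences were positive for 26 of the 32 and their median was 0.12, against 0.02 over all tested probe sets. After quantile normalization 21 of the 32 were positive, with a median of 0.07, and after median centring 17 were, with a median of 0.02. Ly6c1 and Ly6c2 are near-identical and had no probe set paired with either alone.

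The lipid anchor that most Ly6 proteins carry is made and attached in the endoplasmic reticulum. Of 30 measured genes of GPI anchor synthesis and attachment, 2 fell, none rose and 28 did not pass, which is 6.67% called against 5.79% of all probe sets. Pigq, of the enzyme that takes the first step, fell by 0.45 (SE 0.09, limma adjusted p = 0.022), and Pigu, a subunit of the transamidase that joins anchor and protein, fell by 0.37 (SE 0.09, limma adjusted p = 0.045). Both calls were lost after quantile normalization and were kept in 1 of 6 and 0 of 6 fits without 1 array. The highest limma adjusted p over the alternatives were 0.22 for each. The list's median was -0.08, and 0.04 after quantile normalization, so it had no settled direction.

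Among other GPI-anchored proteins of lymphocytes, 17 were measured, 1 rose, 1 fell and 15 did not pass, which is 11.8% called against 5.79% of all probe sets. Sema7a, a GPI-anchored semaphorin, had 7.11, 6.86 and 7.67 on the KO arrays, against 8.47, 8.05 and 8.53 on the WT arrays. Its groups did not overlap, and it differed by -1.14 (SE 0.20, limma adjusted p = 0.014). The call was lost when WT array 1 was left out, and also under quantile normalization with KO array 2 left out (limma adjusted p up to 0.098). Cd52, the short surface glycopeptide known as the CAMPATH-1 antigen, rose by 0.54 (SE 0.10, limma adjusted p = 0.016). Its call was kept in 2 of 6 fits without 1 array (limma adjusted p up to 0.070). Thy1, the GPI-anchored T cell antigen that shares its membrane anchorage with Ly6d, was chosen after its values were seen and had 12.25, 12.36 and 12.20 on the KO arrays, against 12.26, 12.30 and 12.27 on the WT arrays. Its difference was -0.01 (95% interval -0.20 to 0.19).

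Ly6e is known as an interferon-induced gene, so 16 measured interferon-stimulated genes were set beside it. Of these 1 rose, none fell and 15 did not pass, which is 6.25% called against 5.79% of all probe sets, and their median was -0.09. The one that rose was Zbp1, a sensor of Z-form nucleic acids, by 0.49 (SE 0.11, limma adjusted p = 0.040). It kept its call in 1 of 6 fits without 1 array (limma adjusted p up to 0.13).

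Markers of other cells that express Ly6 proteins were counted by list. Over all probe sets 5.79% were called (limma, adjusted p under 0.05), and the counts below stand beside that share. Neutrophil markers did not pass (0 of 12), although all 12 differences were positive, with a median of 0.44. Without KO array 2 the median was 0.14 and 9 of the 12 were positive. Nearest to passing were the granule genes Camp at 0.45 (limma adjusted p = 0.092) and Elane at 0.36 (limma adjusted p = 0.13). Of 9 B cell and B progenitor markers 0 passed, and the mean log2 level of the list was 4.96 to 5.09 on the KO arrays and 4.96 to 5.01 on the WT arrays. The B-lineage factor gene Pax5 had a difference of 0.24 and the surrogate light chain gene Igll1 one of 0.22, each with a limma adjusted p of 0.25. Of 9 thymic epithelium markers the adhesion gene Epcam fell by 0.37 (SE 0.09, limma adjusted p = 0.044), a call lost in all 6 fits without 1 array. It was the 1 negative difference of the list, where the other 8 were positive and the median was 0.18. After quantile normalization 7 of the 9 were positive, with a median of 0.11. The mean level of that list was 5.70 to 5.75 on the KO arrays, against 5.53 to 5.68 on the WT arrays. Of 12 monocyte, macrophage and dendritic cell markers 0 passed (5.08 to 5.36 on the KO arrays, against 4.87 to 5.06 on the WT arrays). The median difference of that list was 0.18, and 0.07 after quantile normalization. The complement gene C1qa had a difference of 0.39 (limma adjusted p = 0.068) and the chemokine receptor gene Cx3cr1 one of 0.29 (limma adjusted p = 0.17).

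Early progenitor markers included the strongest mover of these lists, with 20% called against 5.79% of all probe sets. Of 10, Il2ra, the interleukin-2 receptor alpha chain, rose by 2.28, the adhesion receptor Cd44 fell by 0.66 and 8 did not pass, with limma adjusted p = 0.0033 and 0.0034. Differences were positive for 9 of the 10, Cd44 being the exception, with a median of 0.22. After quantile normalization 8 of the 10 were positive, with a median of 0.12. The mean level of the list was 5.63 to 5.75 on the KO arrays and 5.29 to 5.37 on the WT arrays, and without Il2ra, a calculation added after the data were seen, it was 5.44 to 5.48 on the KO arrays and 5.24 to 5.38 on the WT arrays. Leaving out Il2ra took the mean difference of the list to 0.14, as against 0.36 with it. Of 4 erythroid markers the transcription factor gene Klf1 rose by 0.44 (limma adjusted p = 0.047), with levels of 5.17 to 5.39 on the KO arrays and 4.79 to 5.15 on the WT arrays. Of 8 innate lymphoid markers the granule gene Nkg7 fell by 0.45 (limma adjusted p = 0.041), with levels of 4.31 to 4.49 on the KO arrays and 4.42 to 4.51 on the WT arrays. Klf1 was called in 2 of 6 and Nkg7 in 1 of 6 fits without 1 array. Across the lists of other cell types most differences were positive, and the list medians ran from 0.005 (innate lymphoid) to 0.44 (neutrophil). After quantile normalization the medians ran from -0.03 (innate lymphoid) to 0.34 (neutrophil). The part of other cell types in the fall of Ly6d was not tested.

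Genes whose values followed Ly6d over the 6 arrays were listed by Pearson r, among 165 genes with a signal above the median and an SD of at least 0.5 over the arrays. The 5 most alike were Atxn1 (r = 0.995), H2-T10 (0.992), Fmnl2 (0.990), Nsg2 (0.990) and Myc (0.976). Atxn1 encodes ataxin-1, a nuclear protein that works with the repressor capicua, and H2-T10 a nonclassical class I histocompatibility protein with close paralogs. Fmnl2 encodes an actin-organising formin, Nsg2 an endosomal protein of neurons and Myc the growth-promoting transcription factor. These genes and Ly6d were measured on the same 6 arrays, share the gap between genotypes and share a low value on KO array 2, so the r values are a description.

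The per-array values show the likeness. Atxn1 had 6.43, 5.51 and 6.35 on the KO arrays, against 7.37, 7.04 and 7.01 on the WT arrays. Myc had 6.84, 6.18 and 6.81 on the KO arrays, against 7.95, 7.91 and 7.76 on the WT arrays. Both were lowest on KO array 2, as Ly6d was. Their differences between genotypes were -1.05 (SE 0.22) for Atxn1 and -1.26 (SE 0.17) for Myc, given with no test since likeness to Ly6d over these arrays chose them.

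With each genotype mean subtracted, so that the spread within a genotype alone counted, Epsti1 (r = 0.989), Atxn1 (0.984), Ldlrad3 (0.979), H2-T10 (0.969) and Fmnl2 (0.959) were most alike. The neighbours Lynx1 and Them6 fell outside the signal or SD limits and were looked at after their values were seen. Their r with Ly6d were 0.977 and 0.950 over the 6 arrays, and 0.898 and 0.904 with genotype means subtracted. Ly6e had 0.697 and -0.220. Ly6g and the neutrophil gene S100a9 ran the other way, with -0.972 and -0.984 after subtraction. KO array 2, the lowest array of Ly6d at 6.17, was the highest of Ly6g at 4.61 and of S100a9 at 7.58. The r values after subtraction thus depend strongly on that 1 array, and no conclusion is drawn from them.

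The 5 most opposite genes over the 6 arrays were Alox5ap (r = -0.953), Gimap4 (-0.953), Tnf (-0.919), Rasgrp4 (-0.915) and Traf1 (-0.892). Alox5ap encodes the activating protein of leukotriene synthesis, Gimap4 a GTPase of immunity, Rasgrp4 a Ras exchange factor and Traf1 an adaptor of TNF receptors. Rasgrp4 averaged 8.87 ± 0.19 in KO and 7.36 ± 0.05 in WT (SD, n = 3 each). All its KO arrays were above its WT arrays, and the spread within a genotype was narrow, unlike that of Ly6d.

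**Figure D4:**
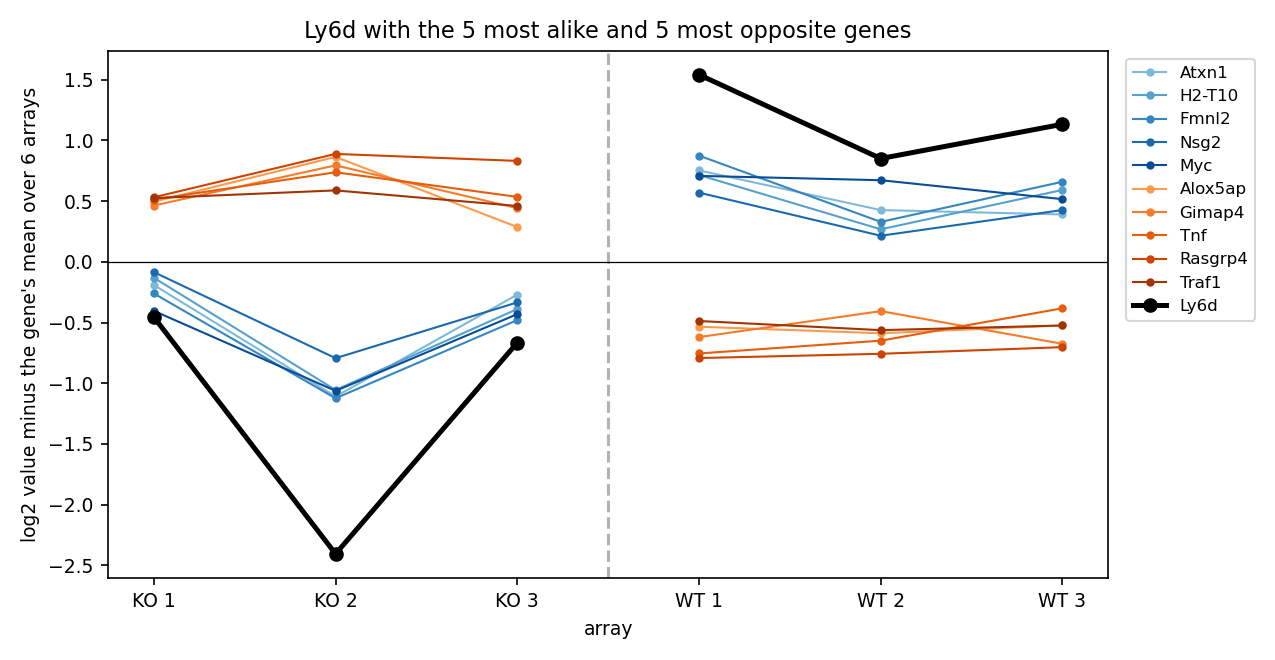
Log2 values of Ly6d (black) and of the 5 genes most alike (blue) and 5 most opposite (orange) over the 6 arrays, each minus the gene's own mean, with KO arrays left of WT arrays. Lines join the arrays of 1 genotype to mark a gene and do not stand for an order. Ly6d and the blue genes are lowest on KO array 2, where Ly6d had a log2 value of 6.17.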

How the data were processed

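Total RNA of DP thymocytes was labelled with a sense-target kit for Affymetrix arrays, per the labels' protocols. The deposited values are log2 probe set signals, a scale read from their range of 1.94 to 13.98. How the authors corrected background, normalized arrays and summarised probes was not given in the sources used here. Groups and replicate numbers came from the sample titles. The arrays are described as biological replicates, but nothing says which mice went into which array. The p-values thus measure only the spread between arrays, part of which may be technical. Precision is limited by having 3 arrays per genotype, with a median SE of 0.11 for a difference.

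Of 28853 probe sets, 23410 had at least 1 gene in the platform annotation and were tested, 1621 of them with several symbols and not used to name a gene. Of 21789 with 1 symbol, 21698 matched RefSeq (GRCm38.p6) by Entrez identifier. The brightest probe set stood for a gene. The model of 2 group means was fitted with limma 3.58.1 (lmFit, eBayes) in R 4.3.3, two-sided, with Benjamini-Hochberg adjustment over all tested probe sets and a threshold of 0.05. It was checked on simulated data with independent noise on each array. Those data held neither an outlying array nor a built-in difference in interquartile range between genotypes, so the check does not cover these features. Exact tests of 3 against 3 arrays cannot go under 0.1 and were not run.

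The members and lists were chosen with earlier results of these data known. Named were all members, up to 4 called genes of each list, called neighbours, measured genes beside Ly6d, and the 5 genes most like Ly6d by each measure. Where a list had no call, the 2 genes with the smallest p were named. Replicate numbers were not used to pair the arrays in the main fit. Correlations of same-numbered deviations over all tested probe sets were 0.25, -0.07 and -0.03, which cannot settle whether the arrays were paired. Measured members had 1 probe set each, so there were none to average.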

Additional observations from a re-analysis of the deposited data

How the results depend on the processing

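The Ly6d difference was negative under each of the 11 alternatives that could move it, between -2.71 (without KO array 1) and -1.74 (without KO array 2) with 1 array left out, and -1.66 after quantile normalization without KO array 2. The count of called members was 0 without WT array 1, and with an intensity trend and robust prior Ly6e was called in place of Ly6d. Of all probe sets 1355 were called (409 higher, 946 lower, 30.2% higher), 2060 after median centring (9.56% higher, with the median difference moved to -0.08), 2285 with array weights, 437 after quantile normalization without KO array 2, and 474 to 1946 without 1 array (474 without KO array 2, 489 without KO array 3, 826 without KO array 1, 517 without WT array 1, 505 without WT array 2, 1946 without WT array 3). Among the 4 lists other than cell type markers, 7 of 95 measured genes were called, 13 with array weights, 2 after quantile normalization without KO array 2, and 0 (without WT array 1) to 9 without 1 array. Of the 60 genes near the members 6 were called, 3 after quantile normalization without KO array 2, and 2 (without WT array 1 or 2) to 6 without 1 array. The replicate block gave 1162, 8 and 4 calls, and by construction it cannot move a difference such as the -2.35 of Ly6d. With the block the SE of Ly6d was 0.24, against 0.43 without it. The Slurp2 difference, which never passed, was -0.0239 after quantile normalization, -0.0308 after cyclic loess, -0.0073 after median centring and -0.0197 after quantile normalization without KO array 2. The cause of these shifts was not tested. No detection limit was used here, and dim genes such as Ly6i and Cd59a are the least secure.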
